A study of Homo sapiens with 10 samples.

Results

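SP5 and SP8 are zinc-finger transcription factors of the SP family, and both were followed here across all 10 libraries of an RNA sequencing study of human embryonic stem cells. They were found by their symbols, as 2 genes among the 37951 in the table, and both were among the 15770 genes with enough counts to be tested. The cells were ESI017, an established human embryonic stem cell line labelled wild type, grown in the defined medium mTeSR1 and plated 24 h before treatment. The groups were WNT3A at 300 ng/ml for 6 h, WNT3A at 300 ng/ml for 18 h, CHIR99021 at 8 µM for 6 h, CHIR99021 at 8 µM for 18 h, and untreated cells in mTeSR1, with 2 libraries each. WNT3A is the natural ligand of the pathway, and CHIR99021 is a small-molecule inhibitor of the kinase GSK3. The labels give no time for the mTeSR1 cells and no solvent control for CHIR99021, so a treatment effect cannot be told apart from time in culture or solvent. Both CHIR99021 18 h libraries came from the second biological repeat, while every other group had 1 library from each repeat. All libraries came from 1 cell line.

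In canonical WNT signalling the ligand, or a block of GSK3, spares β-catenin from degradation, and β-catenin then acts on genes through DNA-binding factors of the TCF/LEF family. SP5 is known as a direct β-catenin target in vertebrate embryos and cultured cells, and the mouse Sp5 and Sp8 genes act together in the caudal embryo, where WNT signalling maintains neuromesodermal progenitors. SP factors bind GC-rich boxes in promoters, and SP5 and SP8 belong to the branch of the family that also holds SP6, SP7 and SP9.

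The promoters of both genes are shown because both genes were higher in every treated library. The sequences are the 250 bases before the RefSeq start in GRCh38.p14, read 5′ to 3′ along the gene, at chr2:170715087-170715336 on the plus strand for SP5 and at chr7:20786887-20787136 on the minus strand for SP8. Capitals mark the core letters of the TCF/LEF motif, TCAAAG, or their reverse complement CTTTGA.
SP5: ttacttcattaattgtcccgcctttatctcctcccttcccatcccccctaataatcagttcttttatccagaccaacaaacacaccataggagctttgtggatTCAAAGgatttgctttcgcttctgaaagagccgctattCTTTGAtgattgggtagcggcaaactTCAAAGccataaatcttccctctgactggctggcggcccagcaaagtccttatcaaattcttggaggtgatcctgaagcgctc
SP8: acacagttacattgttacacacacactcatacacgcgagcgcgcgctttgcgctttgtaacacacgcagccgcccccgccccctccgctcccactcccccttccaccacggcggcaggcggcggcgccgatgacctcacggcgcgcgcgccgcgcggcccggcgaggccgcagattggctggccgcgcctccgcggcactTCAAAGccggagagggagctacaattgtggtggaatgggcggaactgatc

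The searched window also took in the 50 bases after the start, 300 in all, and both strands were read. SP5 held 3 core matches, whose first bases lay at -147, -109 and -83 from the start, counted as +1. SP8 held 1, at -50. Of 35116 RefSeq promoter windows of this length, 12.9% held at least 1 match, 1.29% at least 2, and 0.0997%, or 35 windows, at least 3. Among 9 windows of SP genes, those of SP5 and SP8 held a match, while the 7 windows of SP1, SP2, SP3 and SP4 held none. Windows of SP6 and SP9 were not used here. Of 10 windows of WNT feedback and target genes, described further on, 1 held a match, that of DKK1, while those of TCF7, RNF43 and TNFRSF19 held none. The 10 windows did not cover the whole list, and AXIN2, CCND1 and NKD1 were not among them. The GC box GGGCGG, the site class that SP factors bind, with its reverse complement CCGCCC, was matched once in SP5, at +44, and at -181, -175 and -14 in SP8. At least 1 GC box stood in 45.0% of windows and at least 3 in 15.8%, and no GC box overlapped a TCF/LEF core in either gene. The GC content was 52.3% for SP5 and 61.7% for SP8, against a median of 58.7% over all windows. These matches describe the letters searched only, and other spellings of the TCF/LEF core were neither searched nor marked.

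**Figure D1:**
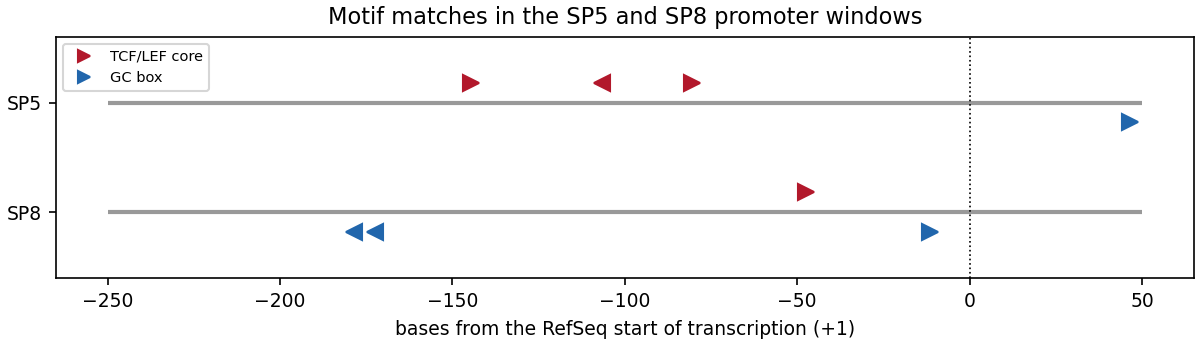
Motif matches along the promoter windows of SP5 and SP8, in bases from the RefSeq start (dotted line). Red triangles are TCF/LEF cores and blue triangles GC boxes, pointing along the gene for a match on its own strand and against it for the other; SP5 shows 3 red matches before the start and SP8 shows 1.

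SP5 was close to absent in untreated cells and among the most strongly raised genes in treated ones. The gene (ENSG00000204335) lies on chromosome 2 at 170715351-170718078, plus strand, in the GRCh38 annotation of GENCODE. Levels are in CPM, estimated counts per 1e+06 in a library after trimmed-mean normalisation. SP5 had 311 and 175 CPM after 6 h of WNT3A, 355 and 287 CPM after 18 h of WNT3A, 61.0 and 57.4 CPM after 6 h of CHIR99021, and 135 and 370 CPM after 18 h of CHIR99021, against 0.366 and 0 CPM in mTeSR1. Every treated library lay above both untreated ones. The mTeSR1 value of 0.366 CPM rests on 7 counts, with an exact 95% Poisson interval of 0.147 to 0.754 CPM, and the other mTeSR1 library had 0 counts. A floor of 3 counts places that library at up to 0.170 CPM, and the upper end of its exact interval is 0.209 CPM. Intervals and floors of this kind cover counting error only.

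Within the first biological repeat SP5 was 849-fold higher after 6 h of WNT3A, 167-fold higher after 6 h of CHIR99021 and 970-fold higher after 18 h of WNT3A than in mTeSR1. In the second repeat, set against a floor of 3 counts in the mTeSR1 library, it was at least 1027-fold higher after 6 h of WNT3A, at least 337-fold after 6 h of CHIR99021 and at least 1688-fold after 18 h of WNT3A. The CHIR99021 18 h libraries were at least 793-fold and at least 2174-fold higher than that floor.

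SP8 started from a low but measurable level and was raised by a smaller factor. The gene (ENSG00000164651) lies on chromosome 7 at 20782283-20786886, minus strand. SP8 had 28.3 and 15.5 CPM after 6 h of WNT3A, 84.5 and 54.6 CPM after 18 h of WNT3A, 13.8 and 11.9 CPM after 6 h of CHIR99021, and 31.0 and 69.1 CPM after 18 h of CHIR99021, against 4.03 and 3.12 CPM in mTeSR1. Every treated library again lay above both untreated ones, which held 77 and 55 counts. Within the first repeat SP8 was 7.03-fold higher after 6 h of WNT3A, 3.44-fold after 6 h of CHIR99021 and 21.0-fold after 18 h of WNT3A than in mTeSR1. Within the second repeat these folds were 4.97, 3.82 and 17.5, and the CHIR99021 18 h libraries were 9.94-fold and 22.1-fold higher. In bulk RNA a larger share of cells with the transcript and more transcript per cell cannot be told apart.

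**Figure D2:**
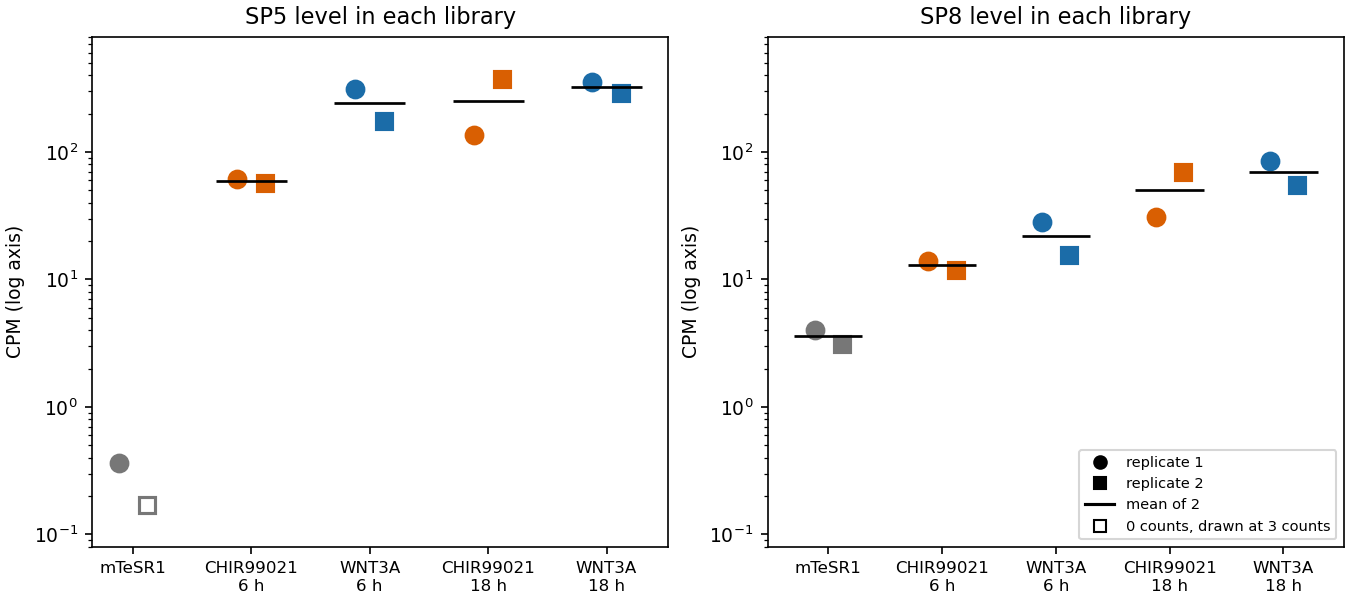
Level of SP5 (left) and SP8 (right) in each library, in CPM on a log axis, with the mean of each group as a line where both libraries had counts. Circles and squares are replicates 1 and 2, and the open square is the mTeSR1 library with 0 SP5 counts, drawn at its floor of 0.170 CPM; all treated libraries lie above both mTeSR1 libraries for both genes.

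Tests used edgeR's quasi-likelihood method over all 15770 genes, and a change is a p adjusted by Benjamini-Hochberg over all of them (FDR) that stays under 0.05. P-values measure the spread between libraries. After 6 h of WNT3A SP5 rose by 10.27 on the log2 scale (SE 0.88, FDR 0.0041, higher in 2 of 2 repeats), and only 4 genes had a larger log2 change. In that comparison 0.374% of genes were called higher and 0.038% lower. SP8 at the same time had a log2 change of 2.61 (SE 0.46, FDR 0.077), which did not pass. With the biological repeat as a block it passed, at 2.58 (FDR 0.033).

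At 18 h of WNT3A both genes were called, SP5 at a log2 change of 10.68 (SE 0.88, FDR 0.0053) and SP8 at 4.28 (SE 0.48, FDR 0.0079), where 0.812% of genes were called higher and 0.717% lower. After 18 h of CHIR99021 both were called as well, SP5 at 10.59 (SE 0.89, FDR 0.0078) and SP8 at 4.09 (SE 0.42, FDR 0.0078), where 0.755% of genes were called higher and 0.856% lower. Only 4 genes had a larger log2 change than SP5 in each of these comparisons. The CHIR99021 18 h fit carried the biological repeat as a block, unlike the WNT3A and 6 h fits. Both of its CHIR99021 libraries came from the second repeat and may not be separate cultures. Without the block edgeR still called SP5 (10.33, FDR 0.0077) and SP8 (3.80, FDR 0.016) at 18 h of CHIR99021. After 6 h of CHIR99021 neither was called, with SP5 at 8.24 (SE 0.86, FDR 0.064) and SP8 at 1.85 (SE 0.45, FDR 0.68). In that comparison edgeR called 0.00634% of genes higher, which is 1 gene, and 0% lower. With the repeat as a block the SP5 change at 6 h of CHIR99021 was 8.28 and passed (FDR 0.043), and DESeq2 called both genes (FDR 3.7e-16 for SP5 and 0.0097 for SP8). The size of an SP5 log2 change depends on how the near-0 mTeSR1 level is handled. The within-repeat folds rest on the same level, with 7 counts in the first repeat and a floor of 3 counts in the second. Neither measure fixes the size of the SP5 change.

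Several calls were lost when 1 library was left out. The SP5 call at 6 h of WNT3A was lost without mTeSR1 replicate 1 (15.19, FDR 0.053), which leaves the mTeSR1 library with 0 counts. The SP8 call at 18 h of WNT3A was lost without mTeSR1 replicate 1 (4.46, FDR 0.069), mTeSR1 replicate 2 (4.10, FDR 0.074) or WNT3A 18 h replicate 1 (3.92, FDR 0.057). At 18 h of CHIR99021 the SP5 call was lost without mTeSR1 replicate 1 (15.26, FDR 0.057) or replicate 2 (9.81, FDR 0.13). The SP8 call there was likewise lost without mTeSR1 replicate 1 (3.99, FDR 0.066) or replicate 2 (4.21, FDR 0.16). The direction was up in each of these fits. The counts of called genes behind the shares above moved too: without 1 library they were 5 to 56 after 6 h of WNT3A, against 65 with all libraries, 21 to 39 after 18 h of WNT3A, against 241, and 6 to 439 after 18 h of CHIR99021, against 254.

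**Figure D3:**
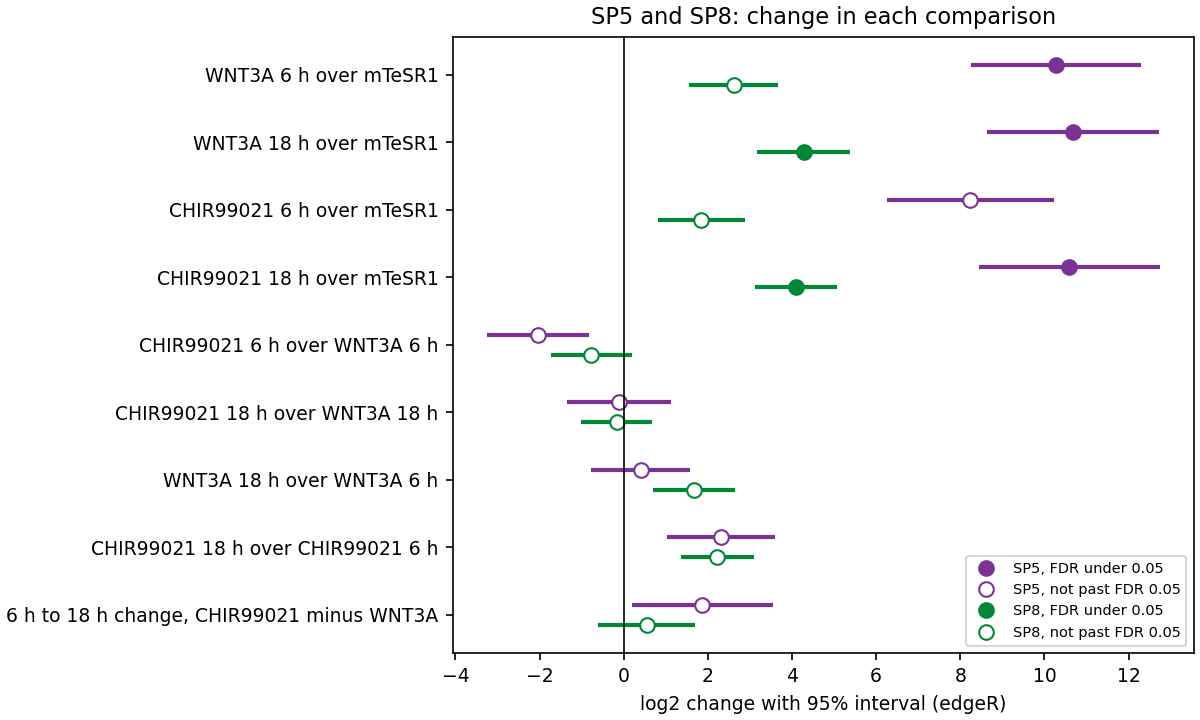
Log2 change of SP5 (purple) and SP8 (green) in each of the 9 comparisons, with 95% intervals from edgeR. Comparisons with CHIR99021 18 h carried the biological repeat as a block and the others did not. Filled points have an FDR under 0.05; these are the SP5 changes after WNT3A at 6 h and 18 h and after CHIR99021 at 18 h, and the SP8 changes at 18 h of either treatment.

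Between 6 h and 18 h of WNT3A the SP8 level moved by a larger factor than the SP5 level in both repeats, and neither change passed the test. Within the repeats SP5 at 18 h was 1.14-fold and 1.64-fold its level at 6 h, a log2 change of 0.40 with a 95% interval of -0.77 to 1.57 (FDR 0.73). SP8 at 18 h was 2.99-fold and 3.52-fold its level at 6 h. Both SP8 libraries at 18 h lay above both at 6 h, and the log2 change was 1.67 with an interval of 0.70 to 2.64, which did not pass (FDR 0.19). In this comparison 0.108% of genes were called in either direction, and DESeq2 called SP8 (FDR 0.0055). Whether the change differed between the genes was not tested.

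Between 6 h and 18 h of CHIR99021 both genes had positive changes of similar size. SP5 in the CHIR99021 18 h libraries was 2.36-fold and 6.45-fold the CHIR99021 6 h library of the same repeat, and SP8 was 2.61-fold and 5.80-fold. For both genes the 18 h libraries lay above the 6 h ones. The log2 change was 2.31 for SP5 (95% interval 1.03 to 3.60, FDR 0.41) and 2.23 for SP8 (1.35 to 3.10, FDR 0.28). In edgeR 0% of genes passed in this comparison, with 1043 at an unadjusted p under 0.05. DESeq2 called 126 genes, SP8 among them (FDR 1.1e-06). Without CHIR99021 18 h replicate 1 the edgeR changes were 2.87 for SP5 and 2.70 for SP8. Without replicate 2 of that group they were 1.41 and 1.54. Each of these fits leaves 1 library in the group.

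The ligand and the inhibitor were set side by side at the same times, though at doses whose strengths are not matched. At 6 h SP5 was 0.196-fold and 0.328-fold with CHIR99021 relative to WNT3A within the repeats, and both CHIR99021 libraries lay below both WNT3A libraries. The log2 difference was -2.04 with a 95% interval of -3.25 to -0.82 (unadjusted p = 0.0049, edgeR FDR 0.71). SP8 at 6 h was 0.489-fold and 0.768-fold with CHIR99021, a difference of -0.77 with an interval of -1.73 to 0.20 (FDR 0.71). Neither passed, and 0.00634% of genes did, which is 1 gene.

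At 18 h the CHIR99021 libraries fell on either side of the WNT3A ones for SP5, which was 0.470-fold and 1.29-fold the WNT3A library of the same repeat. The SP5 difference was -0.11 with a 95% interval of -1.34 to 1.12 (FDR 1), so that 0.394-fold to 2.17-fold are within the interval. SP8 was 0.569-fold and 1.27-fold, a difference of -0.17 with an interval of -1.01 to 0.67 (FDR 1). Again 1 gene, 0.00634%, passed. Without CHIR99021 18 h replicate 1 the sign turned for both genes, to 0.45 for SP5 and 0.30 for SP8, and for SP5 it turned also without WNT3A 18 h replicate 2 (0.04) and in DESeq2 (0.04).

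The change between 6 h and 18 h under CHIR99021 minus that under WNT3A, tested as an interaction, was 1.87 for SP5 (95% interval 0.19 to 3.55, unadjusted p = 0.034, edgeR FDR 0.93). Without CHIR99021 18 h replicate 2 the SP5 value was 0.97, and without replicate 1 of that group it was 2.42. It was 0.54 for SP8 (-0.61 to 1.69, FDR 0.93), with a turn to -0.15 without CHIR99021 18 h replicate 2. The interaction passed for 0.00634% of genes, or 1 gene, and for neither SP5 nor SP8.

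The spread between the 2 CHIR99021 18 h libraries was wide for both genes. Replicate 2 stood above replicate 1 by 1.45 on the log2 CPM scale for SP5 and by 1.15 for SP8, more than in 98.1% and 97.2% of tested genes. The middle 90% of all tested genes lay between -0.759 and 0.797, with a median of 0.00291. The same replicate was higher for 13 of 14 tested WNT feedback and target genes, with a median difference of 1.65. MYC was the exception, at -0.35. This group therefore has a mean of 253 ± 166 CPM for SP5 and 50.1 ± 26.9 CPM for SP8, against 59.2 ± 2.56 and 12.9 ± 1.36 CPM after 6 h of CHIR99021 (SD, n = 2 each). Both libraries come from the second repeat, and what sets them apart was not tested.

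**Figure D4:**
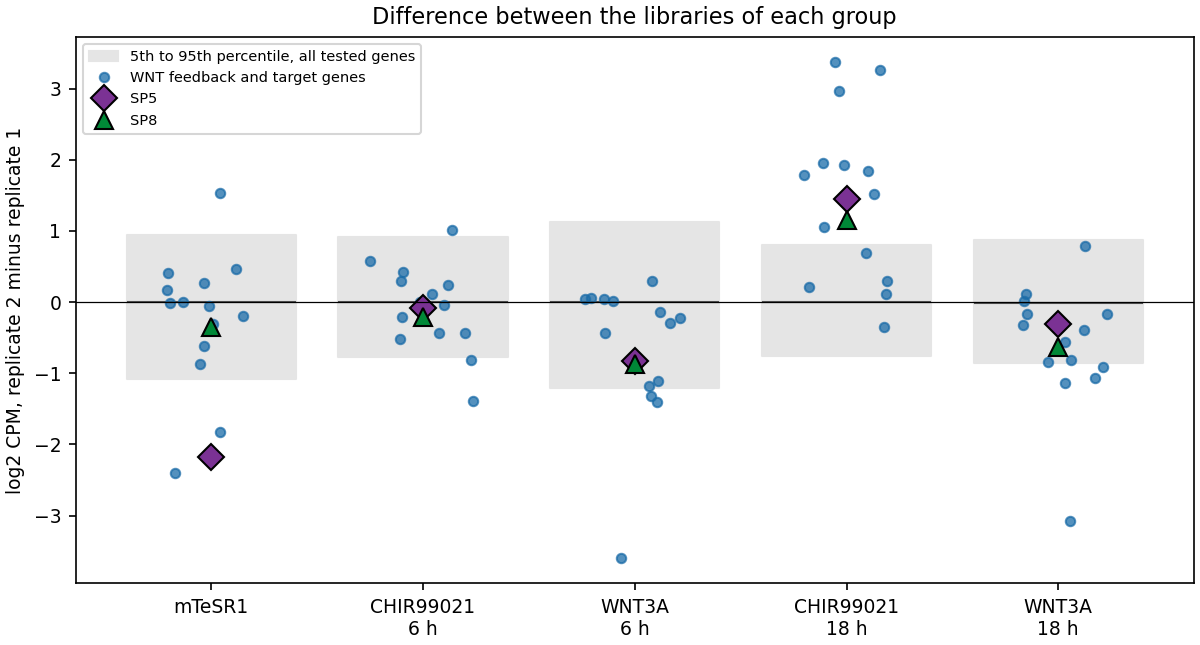
Difference between replicate 2 and replicate 1 of each group, in log2 CPM, for SP5 (diamond), SP8 (triangle) and 14 WNT feedback and target genes (dots), over the 5th to 95th percentile of all tested genes (grey). In CHIR99021 at 18 h SP5 and SP8 stand above the grey band together with most of the target genes; the low SP5 diamond in mTeSR1 reflects 0 against 7 counts.

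Scaled by the longest coding transcript of each gene, SP5 turned from a trace to the most abundant SP-family RNA in every treated library. Levels between genes were compared as CPM per kb of the longest coding transcript, which is 2033 bases for SP5 and 3496 bases for SP8. SP5 averaged 120 ± 47.3 CPM per kb after 6 h of WNT3A, 158 ± 23.6 after 18 h of WNT3A, 29.1 ± 1.26 after 6 h of CHIR99021 and 124 ± 81.8 after 18 h of CHIR99021, against 0.0900 ± 0.127 in mTeSR1 (SD, n = 2 each). SP8 averaged 6.27 ± 2.59 CPM per kb after 6 h of WNT3A, 19.9 ± 6.05 after 18 h of WNT3A, 3.68 ± 0.390 after 6 h of CHIR99021 and 14.3 ± 7.71 after 18 h of CHIR99021, against 1.02 ± 0.183 in mTeSR1 (SD, n = 2 each). SP8 lay below SP5 in all 8 treated libraries and above it in both untreated ones. In CPM not divided by length, SP1 (117 ± 4.19) and SP3 (106.5 ± 6.36) lay above SP5 (59.2 ± 2.56) after 6 h of CHIR99021. SP1 also did so in WNT3A 6 h replicate 2. Of the other SP genes only SP8 was also scaled by its shortest coding transcript. The rank of SP5 thus holds for the longest transcripts only.

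Of the summed CPM per kb of the 8 SP genes measured, SP5 held 55.8% and 71.9% after 6 h of WNT3A, 70.2% and 70.8% after 18 h of WNT3A, 37.3% and 37.4% after 6 h of CHIR99021, and 54.8% and 73.7% after 18 h of CHIR99021, against 0% and 0.388% in mTeSR1. SP8 held between 2.88% and 9.71% in treated libraries and 1.62% and 2.48% in mTeSR1. Scaled by its shortest coding transcript, SP8 held 6.02% to 18.9% in treated libraries and 3.44% and 5.21% in mTeSR1. The broadly expressed SP1 and SP3, which bind GC boxes, made up 31.1% to 40.2% and 36.0% to 36.6% of the sum in mTeSR1. A share of this kind falls for every other member when SP5 is added. SP7 was not analysed here.

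The ratio of SP5 to SP8 per kb was 18.9 and 19.4 after 6 h of WNT3A, 7.23 and 9.06 after 18 h of WNT3A, 7.58 and 8.28 after 6 h of CHIR99021, and 7.48 and 9.21 after 18 h of CHIR99021, against 0.156 and 0 in mTeSR1. The 6 h WNT3A libraries stood apart from all other treated ones, whose ratios overlapped between groups. With the shortest coding SP8 transcript, of 1618 bases, the 6 h WNT3A ratios were 8.74 and 8.97 and those of the other treated libraries 3.34 to 4.26, so that the order was kept.

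**Figure D5:**
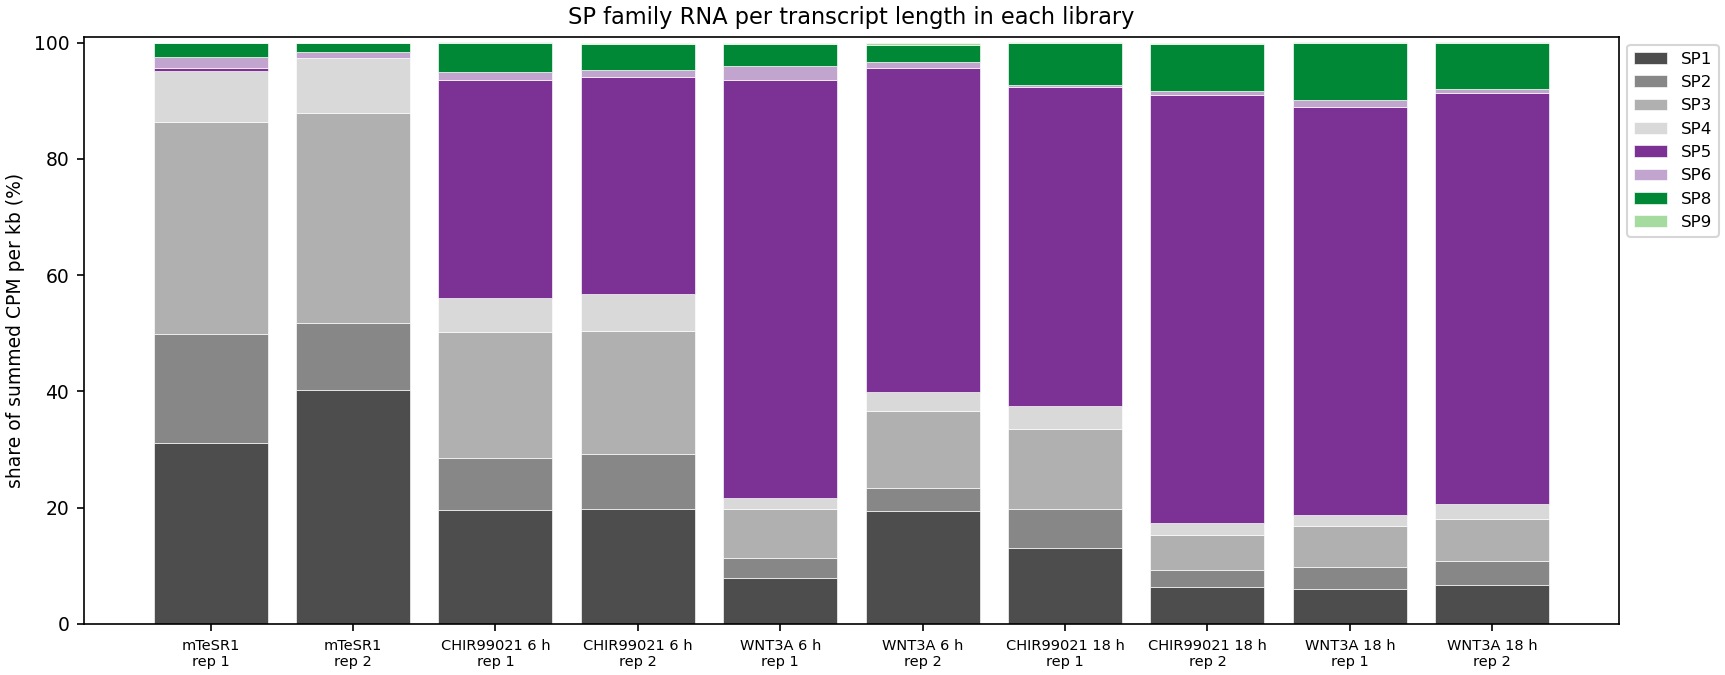
Share of each SP gene in the summed CPM per kb of the 8 SP genes measured, in percent, for each library. SP5 (purple) takes 37.3% to 73.7% of the sum in treated libraries and at most 0.388% in mTeSR1, and SP8 (dark green), scaled by its longest coding transcript, takes at most 9.71%.

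The other SP genes did not pass in any comparison: 0 of 6 tested genes were called higher or lower by edgeR in each of the 9. Of all tested genes 0% to 0.856% were called in a given direction against mTeSR1. In the other comparisons 0% to 0.108% were called in either direction. A count of 0 of 6 is near these shares, and a gene that did not pass may still have changed. SP1, SP2, SP3 and SP4 had log2 changes between -0.37 and 0.36 against mTeSR1 in all 4 treatments. SP6, a factor of mouse epithelial tissues and of the same branch as SP5 and SP8, had 12.4 ± 9.08 CPM after 6 h of WNT3A, 8.73 ± 4.70 after 18 h of WNT3A, 3.89 ± 0.847 after 6 h of CHIR99021 and 4.00 ± 3.21 after 18 h of CHIR99021, against 2.83 ± 0.875 in mTeSR1. Its log2 change after 6 h of WNT3A was 2.12 (FDR 0.58). SP9, a factor of the mouse forebrain and limb, had 0 counts in both mTeSR1 libraries. Over the mean floor of 3 counts per library it was at least 10.3-fold higher after 6 h of WNT3A, 4.70-fold after 18 h of WNT3A, 2.64-fold after 6 h of CHIR99021 and 5.55-fold after 18 h of CHIR99021, and its FDR was 0.12 to 0.97. SP9 levels were low, at 1.69 ± 0.116 CPM after 6 h of WNT3A.

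The wider response of the pathway gave context for SP5 and SP8. Of 15 WNT feedback and target genes 14 were tested. After 6 h of WNT3A 5 rose, which were AXIN2, CCND1, NKD1, TCF7 and TNFRSF19, and none fell. Beside this and the counts of list members that follow, the shares of all tested genes called higher were 0.374% after 6 h of WNT3A, 0.812% after 18 h of WNT3A, 0.00634% after 6 h of CHIR99021 and 0.755% after 18 h of CHIR99021. The median log2 change of the list was 2.53, against 0.01 over all tested genes. At 18 h of WNT3A 5 rose, with RNF43 in place of TNFRSF19 and a median of 2.56. With 6 h of CHIR99021 none passed, and the median was 0.92. With 18 h of CHIR99021 4 rose, which were AXIN2, CCND1, RNF43 and TCF7, with a median of 2.98, or 2.65 when DKK4, at 0 counts in mTeSR1, was put at its bound. SP5 and SP8 are not on this list.

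Among the genes that passed, the cyclin gene CCND1 had a log2 change of 2.11 after 6 h of WNT3A (FDR 0.0041). NKD1, an inhibitor of Dishevelled, stood at 4.20 (FDR 0.044), TCF7 at 2.01 (FDR 0.024), and the receptor gene TNFRSF19 at 3.80 (FDR 0.043). RNF43, a ubiquitin ligase that removes WNT receptors, had a log2 change of 3.97 at 18 h of WNT3A (FDR 0.021) and 3.81 at 18 h of CHIR99021 (FDR 0.035). All of these lay below the SP5 changes of 10.27 to 10.68 in the same comparisons. The RNF43 changes lay below those of SP8 at 18 h, 4.28 with WNT3A and 4.09 with CHIR99021. The order between genes was not tested, and it leaves out genes that did not pass. DKK4, at 0 counts in mTeSR1, was fitted at 11.19 after 6 h of WNT3A (edgeR FDR 0.083), above SP5. LEF1 stood at 5.93 at 18 h of WNT3A (edgeR FDR 0.11), above SP8.

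AXIN2, a scaffold of the β-catenin destruction complex and a classical feedback target, had 217 ± 46.6 CPM after 6 h of WNT3A, 190 ± 30.2 after 18 h of WNT3A, 108 ± 5.90 after 6 h of CHIR99021 and 185 ± 91.4 after 18 h of CHIR99021, against 35.6 ± 5.32 in mTeSR1. Its log2 change after 6 h of WNT3A was 2.61 (FDR 0.020). The log2 change of SP8 at that time was the same to 2 decimals without passing, while DKK4, a secreted WNT inhibitor with 0 counts in mTeSR1, was at least 92.0-fold over its floor.

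Of 11 genes of the β-catenin transcription complex, the DNA-binding partners, co-factors and β-catenin itself, 2 rose after 6 h of WNT3A. These were TCF7, a TCF/LEF factor and target gene at once, and TLE3, a co-repressor of TCF/LEF factors with 420 ± 54.7 CPM against 79.1 ± 3.95 in mTeSR1 (log2 change 2.41, FDR 0.0039). At 18 h of WNT3A TCF7 rose and TCF7L1, the TCF factor that represses target genes in mouse pluripotent cells, fell by 1.69 on the log2 scale (FDR 0.031). Over all tested genes 0.374% were called higher after 6 h, and 0.812% higher and 0.717% lower after 18 h. TCF7 rose after 18 h of CHIR99021, and none of the 11 passed after 6 h of CHIR99021. TLE3 was the 1 gene of this list called between times, lower at 18 h than at 6 h of WNT3A. CTNNB1, which encodes β-catenin, was not called, with 646 ± 135 CPM after 6 h of WNT3A and 533 ± 69.3 CPM in mTeSR1.

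Of 14 neuromesodermal and caudal genes, the setting in which mouse Sp5 and Sp8 are known to act, 13 were tested. After 6 h of WNT3A 1 rose, NKX1-2, a marker of the mouse caudal lateral epiblast, with a log2 change of 3.67 (FDR 0.011). At 18 h of WNT3A 4 rose, which were HOXB1, NKX1-2, TBXT and WNT8A. Of all tested genes 0.374% were called higher at 6 h and 0.812% at 18 h of WNT3A, and 0.00634% at 6 h and 0.755% at 18 h of CHIR99021. With 6 h of CHIR99021 none passed, and with 18 h of CHIR99021 NKX1-2 (log2 change 3.41, FDR 0.0078) and WNT8A (FDR 0.044) rose. The list median was 2.56 and 4.07 after 6 h and 18 h of WNT3A and 1.93 and 2.98 after 6 h and 18 h of CHIR99021. With HOXB1, TBXT and WNT8A, all at 0 counts in mTeSR1, put at their bounds, these medians were 1.29 and 3.87 for WNT3A and 1.21 and 2.73 for CHIR99021. HOXB1, a homeobox gene of the hindbrain and caudal body, was at least 14.6-fold over its floor and the ligand WNT8A at least 28.7-fold after 18 h of WNT3A. TBXT, the mesodermal T-box factor brachyury, was at least 68.5-fold over its floor after 6 h and at least 352-fold after 18 h of WNT3A. SOX2, which neuromesodermal and pluripotent cells share, was 269 ± 51.6 CPM after 6 h of WNT3A, 314 ± 36.3 after 18 h of WNT3A, 316 ± 10.1 after 6 h of CHIR99021 and 355 ± 34.5 after 18 h of CHIR99021, against 303 ± 54.4 CPM in mTeSR1.

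The 10 pluripotency genes summed to 7241 to 9278 CPM in treated libraries and 9555 to 9773 CPM in mTeSR1, and none was called against mTeSR1. Among them DNMT3B had 2430 to 2572 CPM in mTeSR1. It had 1631 to 1896 CPM after 6 h of WNT3A and 1689 to 1760 CPM after 6 h of CHIR99021. At 18 h it had 1211 to 1353.5 CPM with WNT3A and 937 to 1523 CPM with CHIR99021. Every treated library thus lay below both untreated ones for DNMT3B. SOX2, also of this list, had treated group means on both sides of its mTeSR1 mean. Markers of other cell types were low beside the pluripotency genes. The 8 neuroectoderm genes summed to 9.38 to 33.8 CPM in treated libraries and 8.97 to 30.7 CPM in mTeSR1, and the 6 trophoblast and amnion genes to 3.22 to 18.1 and 9.82 to 13.5 CPM. The 6 fibroblast genes summed to 73.2 to 167 CPM in treated libraries and 71.6 to 105 CPM in mTeSR1, with 2 or 3 of them at 0 in each library. The summed level of 5 definitive endoderm genes was higher in treated libraries, at 3.07 to 4.68 CPM after 6 h of WNT3A, 4.85 to 8.00 after 18 h of WNT3A, 2.65 to 3.72 after 6 h of CHIR99021 and 4.00 to 8.18 after 18 h of CHIR99021, against 0.732 to 1.14 in mTeSR1. Of these FOXA2 was the 1 called, higher at 18 h of both treatments. In those comparisons 0.812% (WNT3A) and 0.755% (CHIR99021) of all tested genes were called higher. At 18 h of WNT3A and of CHIR99021 FOXA2 had 5.48 ± 1.62 and 5.20 ± 2.71 CPM, against 0.360 ± 0.213 in mTeSR1. HHEX had 0.395 ± 0.0925 and 0.632 ± 0.303, against 0.164 ± 0.00952. CER1 had 0.531 ± 0.551 and 0.177 ± 0.171, against 0.332 ± 0.173. GATA6 had 0.0235 ± 0.0333 and 0.0847 ± 0.120, against 0.0784 ± 0.111. SOX17 was at 0 in every group but WNT3A 6 h, where it had 1 count. Whether cells of these other types were present was not tested, nor was their part in the SP5 and SP8 levels.

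Across the 10 libraries SP5 and SP8 moved together, with Pearson's r of 0.897 and Spearman's rho of 0.927 on log2 CPM, given as a description since the libraries share treatments. By Pearson's r over 14720 genes SP8 was 73rd in likeness to SP5. The 5 genes most like SP5 were FST, an inhibitor of activin (0.992), PTCHD4 (0.980), the cadherin CDH8 (0.975), the forkhead factor FOXB1 (0.974) and the ubiquitin ligase HERC3 (0.971). FST had 262 ± 39.6 CPM after 6 h of WNT3A, 383 ± 117 after 18 h of WNT3A, 112 ± 9.61 after 6 h of CHIR99021 and 288 ± 157 after 18 h of CHIR99021, against 9.97 ± 3.58 in mTeSR1. FOXB1 was the gene called after 6 h of CHIR99021, with a log2 change of 5.04 (FDR 0.00064).

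The 5 genes most like SP8 were EGFLAM, an extracellular matrix protein (0.986), the ligand WNT5B (0.983), the methyltransferase SMYD2 (0.981), the gap junction protein GJA1 (0.981) and the receptor kinase ALK (0.980). WNT5B had 34.0 ± 21.3 CPM after 6 h of WNT3A, 114 ± 42.1 after 18 h of WNT3A, 7.45 ± 0.549 after 6 h of CHIR99021 and 67.4 ± 68.3 after 18 h of CHIR99021, against 1.32 ± 0.578 in mTeSR1. By Spearman's rho the 5 nearest genes were all others for SP5, and for SP8 only WNT5B remained.

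Genes beside SP5 and SP8 were read for levels too. Within 500 kb of the SP5 start 13 genes are annotated, of which 3 were tested: ERICH2, GAD1 and GORASP2. GAD1, which encodes an enzyme that makes the transmitter GABA and starts 97.9 kb downstream of SP5, had 80.7 and 67.1 CPM after 18 h of WNT3A and 23.6 and 111 CPM after 18 h of CHIR99021, against 1.15 and 0.227 CPM in mTeSR1. GAD1 was called after 18 h of WNT3A (log2 change 6.71, FDR 0.020) and after 18 h of CHIR99021 (6.99, FDR 0.041). At 6 h it had 39.0 and 18.8 CPM with WNT3A (5.35, edgeR FDR 0.082). With 6 h of CHIR99021 it had 11.7 and 8.84 CPM (3.86, edgeR FDR 0.68), and neither 6 h change passed. ERICH2 and GORASP2 were not called in any comparison, with ERICH2 at 2.34 after 18 h of CHIR99021 (edgeR FDR 0.051). Of 14 genes annotated within 500 kb of SP8 the 1 tested, ITGB8, was not called.

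Library totals were 1.66e+07 to 2.67e+07 estimated counts, so that 3 counts amount to 0.118 to 0.179 CPM, and mitochondrial genes took 2.70% to 6.73%. In mTeSR1 replicate 2 and WNT3A 6 h replicate 2 the deviations of genes from their overall mean tracked transcript length, with Spearman coefficients of 0.346 and 0.441 across 15060 genes, against -0.292 to -0.0135 in the other libraries. With both of these libraries left out, an alternative chosen after seeing the data, no SP5 or SP8 call was kept. SP5 then stood at 9.69 after 6 h of WNT3A (FDR 0.22), 9.75 after 18 h of WNT3A (FDR 0.076) and 9.61 after 18 h of CHIR99021 (FDR 0.39), and SP8 at 4.11 after 18 h of WNT3A (FDR 0.087) and 4.08 after 18 h of CHIR99021 (FDR 0.37). That fit has 1 mTeSR1 library.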

How the data were processed

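Per the labels' protocols, poly-A RNA was reverse transcribed from random hexamers and sequenced in pairs. The authors deposited estimated counts per gene, and Salmon 1.8.0 with GRCh38 is named in the submitters' processing notes. Transcript set, filters and strand setting were not given in the sources used here. Reads of overlapping genes can thus not be told apart. The estimated counts were rounded to whole numbers. edgeR 4.0.16 in R 4.3.3 was run with trimmed-mean scaling, a minimum count of 10 and total of 15, and robust quasi-likelihood tests on all 10 libraries. Comparisons with CHIR99021 18 h carried the biological repeat as a block and the others did not. Replicates share a repeat by the series' design text: deviations from group means correlated at 0.207 to 0.511 over 6 pairs of groups. Replicate numbers within CHIR99021 18 h are names given here. Nothing says that the libraries of that group are separate cultures, so their spread may be technical. No replicates agreed within sampling noise (chi-square per degree of freedom 13.4 to 101). Alternatives were DESeq2 1.42.0, other scaling, no filter, the repeat block, the compared groups alone, identifiers summed per symbol, and leaving out each library. The tests were checked on simulated data with 200 changed genes, for WNT3A 18 h over mTeSR1 only and with no repeat effect. That check did not cover a gene near 0 counts in mTeSR1 or the CHIR99021 18 h comparisons. Its outcome is not given here. Likeness used log2 CPM (prior count 2), and the 5 nearest genes were named. Of the lists, genes that passed and all SP genes were named. CER1, CTNNB1, CYP26A1, DKK4, DNMT3B, FOXA2, GATA6, HHEX, LEF1, MYC, SOX2 and TBX6 were chosen after their values were seen. Gene coordinates and transcript lengths are from GENCODE release 29, and promoters from RefSeq. The members and lists were chosen with earlier results of these data known.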

Additional observations from a re-analysis of the deposited data

How the results depend on the processing

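Over the SP5 and SP8 changes, 202 alternative values were computed, of which 171 kept their direction and side of the threshold, 16 lost a call, 10 gained one and 5 turned sign. The change of SP5 against mTeSR1 was lost in the fit of only the groups compared after 6 h of WNT3A (10.27, FDR 0.098) and after 18 h of CHIR99021 (15.14, FDR 0.22), as was that of SP8 after 18 h of CHIR99021 (4.00, FDR 0.13), and both calls after 18 h of WNT3A were kept (FDR 0.0030 each). Without the libraries whose genes tracked transcript length, a choice made after seeing the data, SP5 fell below the threshold at 9.69, 9.75 and 9.61 and SP8 at 4.11 and 4.08, as in the report. DESeq2 gave calls for SP8 after 6 h of WNT3A (2.60), for SP5 (8.30) and SP8 (1.84) after 6 h of CHIR99021, and for SP8 between 6 h and 18 h of WNT3A (1.67) and of CHIR99021 (2.23). In DESeq2 the SP5 difference between CHIR99021 and WNT3A at 18 h turned to 0.0356. The replicate block gave calls for SP8 after 6 h of WNT3A (2.58) and SP5 after 6 h of CHIR99021 (8.28), and changed no other SP5 or SP8 call, and summing identifiers per symbol also called SP5 after 6 h of CHIR99021 (8.24). The cause was not tested.

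With 1 library left out at a time, SP5 ranged over 9.34 to 15.19 after 6 h of WNT3A, 9.75 to 15.60 after 18 h of WNT3A, 7.31 to 13.16 after 6 h of CHIR99021 and 9.69 to 15.26 after 18 h of CHIR99021, and SP8 over 3.92 to 4.56 after 18 h of WNT3A and 3.39 to 4.55 after 18 h of CHIR99021, against mTeSR1. For CHIR99021 over WNT3A at 18 h SP5 ranged over -1.01 to 0.45, turning to 0.0383 without WNT3A 18 h replicate 2 and 0.448 without CHIR99021 18 h replicate 1, and SP8 over -0.86 to 0.30. Between 6 h and 18 h of CHIR99021 SP5 ranged over 1.41 to 2.87 and SP8 over 1.54 to 2.70, and the interaction over 0.97 to 2.42 for SP5 and -0.15 to 1.01 for SP8. A library left alone in its group is assumed to vary like the others.

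Counts of called genes moved by more than 1.5 times. Without mTeSR1 replicate 1, mTeSR1 replicate 2 or WNT3A 6 h replicate 2 the count for WNT3A 6 h over mTeSR1 was 5, 23 or 34, and for CHIR99021 18 h it was 12 without mTeSR1 replicate 1, 6 without mTeSR1 replicate 2, 67 without CHIR99021 18 h replicate 2 and 439 without CHIR99021 18 h replicate 1. For WNT3A 18 h each library left out gave 21 to 39. With all libraries, for WNT3A 6 h over mTeSR1 edgeR called 65 genes, 139 with the replicate block, 123 unfiltered and 0 with only the groups compared, and DESeq2 259. For WNT3A 18 h these were 241, 594 and 395 and for DESeq2 793. For CHIR99021 6 h they were 1, 20 and 10 and for DESeq2 70. For CHIR99021 18 h edgeR called 254 genes, 152 with no replicate block, 868 with only the groups compared, and DESeq2 832. For WNT3A 18 h over 6 h edgeR called 17, 168 with the block, 163 unfiltered, and DESeq2 386. DESeq2 called 41 genes for CHIR99021 6 h over WNT3A 6 h, 18 for CHIR99021 over WNT3A at 18 h and 12 for the interaction, against 1 each in edgeR.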
